A study of Mus musculus with 41 samples.

Results

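Microglia sorted from the cerebellum of mice that carry the Niemann-Pick type C mutation and had been given PLX5622 were compared with microglia of mutant mice labelled as controls. The comparison takes 10 of the 41 libraries of the series, chosen by their labels, with 5 libraries in each group. Both groups are of strain BALB/cNctr-Npc1m1N/J, carry the Npc1 mutation and were 9 weeks old, and they differ in the labels only in treatment. PLX5622 is a small-molecule inhibitor of the kinase Csf1r. Its dose, route and duration, and what the controls received, are not given in the sources used here. Cells positive for CD11b and Tmem119 were sorted by flow cytometry, so each library describes the cells that were present after treatment and passed that gate. Their polyadenylated RNA was amplified with SMART-seq v4. The labels give each library a number without saying that it is 1 animal, and the series text gives 5 mice for a treatment group. The p-values therefore measure the spread between these libraries. Where genotype values are given for orientation, they come from 4 wild-type and 3 untreated Npc1 mutant libraries of 9 weeks, named WT and NPC below.

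Csf1r is the receptor for Csf1 and Il34, and microglia depend on its signalling for survival. Its inhibitors deplete most microglia while they are given, and a minority of cells persists. In Niemann-Pick type C the cholesterol transporter Npc1 is missing from the lysosome, and cholesterol builds up in late endosomes and lysosomes. Cerebellar Purkinje cells degenerate, and microglia there take on an activated, lipid-laden state.

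The values are normalized counts per gene as the authors deposited them. The reads recovered from them ranged from 32452155 to 35877535 per library, and differences are given on the scale of log2(normalized count + 1). Npc1 stood between 419 and 721 normalized counts in the PLX5622 libraries and between 493 and 787 in the controls. The WT libraries averaged 5808 ± 920 (SD, n = 4), so both groups carried the reduced Npc1 level of the mutant. Of the other libraries the NPC group at 9 weeks is the nearest counterpart of the controls. The fit of limma across 14312 genes called 0 genes higher and 0 lower between them at an adjusted p under 0.05, against 105 and 493 at an unadjusted p under 0.05, and no other tool was run on it. PLX5622 replicate 5 was the treated library nearest to the controls by correlation. Its Spearman correlation across genes was 0.987 to 0.989 with control replicates 3, 4 and 5, and 0.958 to 0.979 with the other PLX5622 libraries. Its highest correlations were with controls, against its label, and whether it is labelled correctly was not tested. PLX5622 replicates 1 and 3 also correlated best with a control, at 0.969 and 0.970949. Within their own group they reached at most 0.966 and 0.97085. The highest correlation within the treated group, 0.979, was that of replicates 4 and 5. Controls correlated with each other at 0.970 to 0.993. Xist, which marks female cells, was high in PLX5622 replicates 1, 2 and 5 and in control replicates 1 and 5, and near 0 to 13.3 normalized counts in the others, so each group held both kinds.

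The sorted cells carried microglia markers in every library. The summed level of 14 microglia markers was 1102233 to 1414143 normalized counts in the PLX5622 libraries and 1267300 to 1446420 in the controls. Of the 14 markers, 13 had a negative log2 change, with a median of -0.33. By limma 1 fell, Fcrls, which is described below, and 0 rose, against 0.311% and 0.637% of all genes. At an unadjusted p under 0.05 there were 6 lower and 1 higher, edgeR called 0, and DESeq2 called 3 lower and 1 higher. Tmem119, a membrane protein used in the sort, had 67107, 115324, 110344, 104801 and 111920 normalized counts in the PLX5622 libraries and 80186, 124931, 128890, 126433 and 114203 in the controls. Itgam, which encodes CD11b, had 18834, 28928, 25261, 23096 and 36064 normalized counts in the PLX5622 libraries and 24687, 36463, 35840.0, 33958 and 37718 in the controls. The ranges of both genes overlapped between the groups. Their log2 changes were -0.18 (SE 0.17, adjusted p = 0.671) and -0.37 (SE 0.17, adjusted p = 0.325) by limma.

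Markers of monocytes and neutrophils had positive log2 changes, none past the test, and a wide spread among the treated libraries. Of 16 listed genes 15 were in the table and 13 passed the filter on low values. All 13 had a positive log2 change, with a median of 2.83, and 0 passed the test by limma. At an unadjusted p under 0.05 there were 4, edgeR called 0 and DESeq2 called 5. Their summed level was 6995, 5261, 101112, 6024 and 696 normalized counts in PLX5622 replicates 1 to 5, and 914, 5224, 386, 2114 and 329 in control replicates 1 to 5. PLX5622 replicate 3 lay far above every other library, and PLX5622 replicate 5 lay within the control range. S100a8, a calcium-binding protein of neutrophils, had 677, 754, 11268, 645 and 113 normalized counts in the PLX5622 libraries and 137, 677, 50.5, 295 and 22.3 in the controls. The members with the smallest adjusted p were Mmp8, F10 and Retnlg, at 0.108, 0.146 and 0.15. F10 was listed at 0 in all 5 controls and had between 1.87 and 24.6 normalized counts after PLX5622.

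Other marker lists gave 3 calls. Border-associated macrophage markers summed to 27677 to 50957 normalized counts after PLX5622 and to 19752 to 30072 in the controls. Of 8 measured members 2 rose and 0 fell, against 0.637% and 0.311% of all genes. The 2 were Siglec1 and Ms4a7, which are described below. Folr2 of the same list was below all controls in all treated libraries (log2 change -1.54, adjusted p = 0.0691). Astrocyte and Bergmann glia markers summed to 5746 to 10723 and 9379 to 11483, and 1 of 12 fell, against 0.311% of all genes. This was the glutamate transporter Slc1a3, which alone averaged 8628 in the controls. Of the 12, 10 had a positive log2 change, with a median of 0.77, and at an unadjusted p under 0.05 there were 5 higher and 1 lower. Slc1a3 had 3752, 4095, 5523, 5029 and 6743 normalized counts in the PLX5622 libraries and 9239.9, 7477, 7874, 8854 and 9694 in the controls (log2 change -0.80, adjusted p = 0.0275), and the adjusted p reached 0.0955 without 1 of PLX5622 replicates 2 to 4 or control replicates 2 to 5. Markers of neurons (9 measured), oligodendrocytes (9), endothelial cells and pericytes (8), lymphocytes (6) and erythrocytes (1) gave 0 calls by limma and edgeR. At an unadjusted p under 0.05 there were 2, 0, 2, 3 and 0, and DESeq2 called 0, 0, 2, 1 and 0. Neuron markers summed to 104 to 541 normalized counts after PLX5622 and 175 to 275 in the controls, oligodendrocyte markers to 7021 to 15498 and 6926 to 10007. Endothelial markers summed to 851 to 1879 and 1581 to 1965, lymphocyte markers to 709 to 1251 and 1093 to 1388, and erythrocyte markers to 4.39 to 52.9 and 5.32 to 91.1. The endothelial gene Pecam1 was at 5.87 to 63.9 after PLX5622 and 94.8 to 126 in the controls (adjusted p = 0.0603). Opalin, Pax5 and the globin genes were listed at 0 in all 10 libraries.

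**Figure D1:**
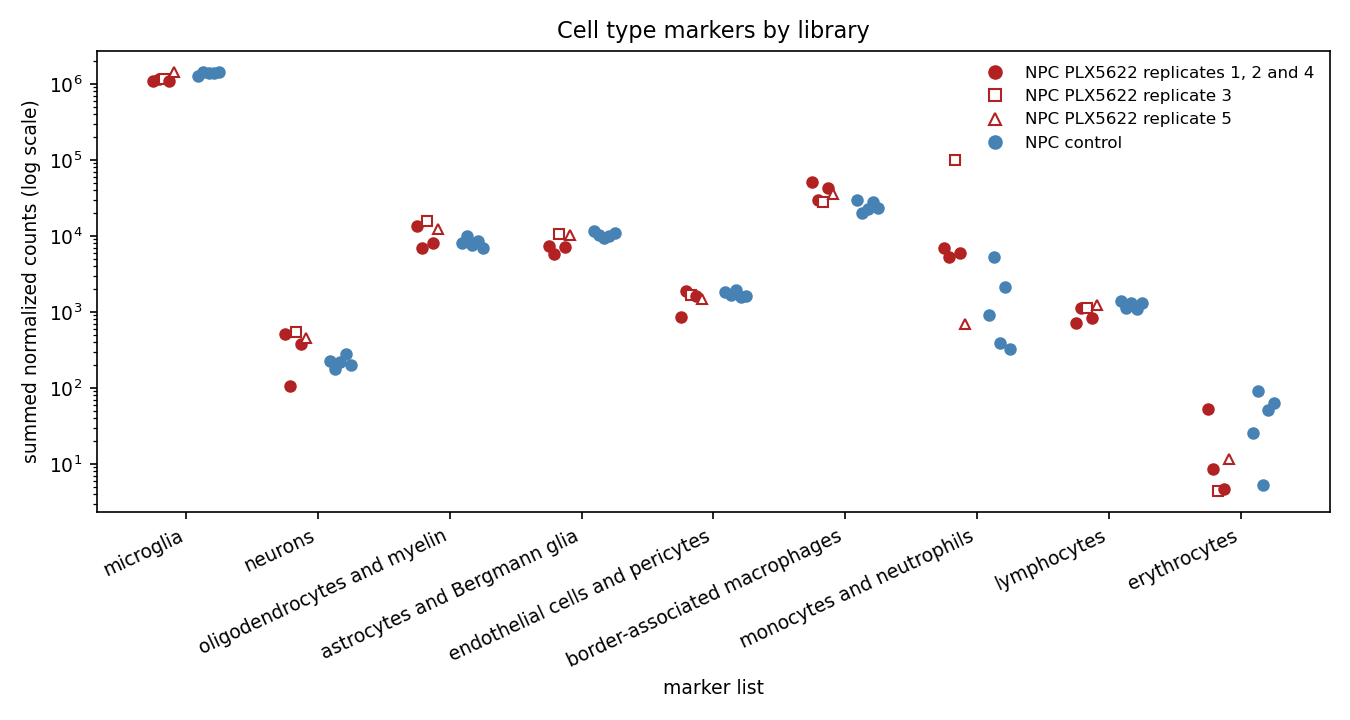
Summed normalized counts of each cell type marker list (log scale) in the 5 PLX5622 and 5 control libraries, 1 point per library. Monocyte and neutrophil markers reach 101112 in PLX5622 replicate 3, while the microglia markers lie between 1102233 and 1446420 in all 10 libraries.

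Genes that rose after PLX5622 included the matrix and adhesion genes Emilin2, Cd44 and Itgal, the scavenger receptor Msr1, the oxidase subunit Cybb and the IgG receptor Fcgr4. Genes that fell included Cst3, Crybb1 and Fcrls, which are abundant in resting microglia. Of 12877 genes tested, 82 were higher (0.637%) and 40 were lower (0.311%) after PLX5622, together 122 (0.947%), at an adjusted p under 0.05 by limma. In bulk RNA from sorted cells, fewer cells of a kind and less RNA per cell cannot be told apart. The log2 changes of the called genes ranged from 0.47 to 4.51 among those that rose and from -3.92 to -0.50 among those that fell. Over all genes the median log2 change was 0.01, and the counts and median of each gene list stand against these values. All PLX5622 libraries lay above all controls for 270 genes (2.10%) and below them for 231 (1.79%). Among the called genes 78 of the 82 that rose and 39 of the 40 that fell were so separated.

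How many genes were called depended on single libraries. Leaving out PLX5622 replicate 5 raised the count from 122 to 465, and all 122 were among those called. Leaving out PLX5622 replicate 2, 3 or 4 gave 47, 62 and 38 calls. Without control replicate 2, 3, 4 or 5 there were 35, 33, 29 and 21. PLX5622 replicate 5 was the treated library nearest to the controls for 55 of the 82 genes that rose and 25 of the 40 that fell. In each of the 10 fits that left out 1 library, 19 of the genes that rose and 2 of those that fell were called. With the mean log2 level of the monocyte and neutrophil markers as a covariate, an alternative chosen after seeing the data, 1 gene was called, Fam129a, at an adjusted p of 0.0453. In that fit 933 genes had an unadjusted p under 0.05, against 1931 in the fit without it, and all 122 called genes had the same direction. The part of these cells, of replicate 5 or of its label in the results was not tested.

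The smallest adjusted p-values belonged to 3 genes, of which Fam129a and Sdc3 are named after their values were seen. Fam129a, which encodes the stress-responsive protein Niban, had 2561, 2345, 2894, 3810.0 and 1957 normalized counts in the PLX5622 libraries and 742, 889.9, 689, 788 and 688 in the controls. It was higher in every PLX5622 library than in any control, by a log2 change of 1.81 (SE 0.16, adjusted p = 0.000682 by limma). Fcgr4, an activating receptor for IgG, had 1341, 1220.4, 1332, 1571 and 1016 normalized counts in the PLX5622 libraries and 573, 508, 433, 449.5 and 433 in the controls. The lowest treated library stood at 1016 and the highest control at 573, and the log2 change was 1.43 (SE 0.14, adjusted p = 0.00108). Sdc3, a cell-surface heparan sulfate proteoglycan, had 25264, 37073, 24566, 26797 and 26300.2 normalized counts in the PLX5622 libraries and 8485, 10910.2, 11894, 12974 and 8650.0 in the controls. It rose 2.65-fold (adjusted p = 0.00154), and with any 1 library left out the adjusted p of the 3 genes was at most 0.00563, 0.00731 and 0.00831.

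Only called genes that averaged 100 or more normalized counts after PLX5622 and whose groups did not overlap were ranked, and their 12 largest rises are described by the known roles of the genes. Emilin2, a glycoprotein of the extracellular matrix, had 3961, 3343, 1403, 3757 and 1029 normalized counts in the PLX5622 libraries and 456, 168, 310.2, 295 and 288 in the controls. The groups did not overlap, and the treated libraries spread more widely than the controls. The rise was 8.10-fold, a log2 change of 3.02 (SE 0.38, adjusted p = 0.00703 by limma). Cd44, the receptor for hyaluronan, had 3283, 1690.2, 2271, 2654 and 776 normalized counts in the PLX5622 libraries and 574, 314, 306, 471 and 377 in the controls. It rose 4.83-fold (SE 0.33 on the log2 scale, adjusted p = 0.0103), with PLX5622 replicate 5 the nearest to the controls. Itgal, the alpha subunit of the leukocyte integrin LFA-1, had 1799, 1756, 898, 1910.1 and 633 normalized counts in the PLX5622 libraries and 373, 451, 191, 348 and 221 in the controls. It rose 4.24-fold without overlap (adjusted p = 0.0149), and without control replicate 5 the adjusted p was 0.0602.

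Receptors of the cell surface, an endosomal channel and an oxidase subunit also rose. Msr1, a scavenger receptor that takes up modified lipoproteins, had 6810.4, 3392, 3095, 13332 and 3243 normalized counts in the PLX5622 libraries and 1372, 1158, 1279.9, 1282 and 871 in the controls. PLX5622 replicate 4 was the highest, and the rise was 4.23-fold (log2 SE 0.35, adjusted p = 0.0204). Cybb, the catalytic subunit of the phagocyte NADPH oxidase, had 8488, 5158, 5273, 8991 and 2919 normalized counts in the PLX5622 libraries and 1466, 1809, 1206, 1849 and 825 in the controls. All treated libraries exceeded all controls, by 4.16-fold (log2 SE 0.30, adjusted p = 0.0103). Pilrb1, an activating immunoglobulin-like receptor, had 70.5, 141, 144, 161 and 58.2 normalized counts in the PLX5622 libraries and 15.1, 16.9, 30.1, 21.9 and 22.3 in the controls and rose 4.94-fold (adjusted p = 0.0219). A near-identical neighbour of Pilrb1 may share its reads, so its level is uncertain. Mcoln2, a cation channel of endosomes and lysosomes, had 298, 257, 192, 288 and 140.2 normalized counts in the PLX5622 libraries and 84.3, 11.3, 53.2, 52.6 and 54.0 in the controls. It rose 5.15-fold (adjusted p = 0.0337), and control replicate 2 was far below the other controls. Among these 4, Cybb was called without each library in turn. Without 1 of control replicates 2 to 5 the adjusted p of Msr1 reached 0.0748. Pilrb1 reached 0.0677 without 1 of PLX5622 replicates 2 to 4 or control replicates 2, 4 and 5. Mcoln2 reached 0.0984 without 1 of PLX5622 replicates 1 to 4 or control replicates 3 to 5.

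The remaining large rises were in signalling, cytoskeletal and membrane genes. Kcna3, the voltage-gated potassium channel Kv1.3, had 1917, 1229, 743, 924 and 404 normalized counts in the PLX5622 libraries and 274, 192, 221, 174 and 154 in the controls. It rose 4.59-fold (log2 SE 0.34, adjusted p = 0.0116), with every treated library above every control. Iqgap1, a scaffold that links small GTPases to actin, had 2626, 2561, 1157, 2959 and 1021 normalized counts in the PLX5622 libraries and 558, 559, 503, 500.3 and 336 in the controls, a rise of 3.89-fold (adjusted p = 0.0112). Vav3, an exchange factor for small GTPases, had 1161, 1056, 847, 1905 and 322 normalized counts in the PLX5622 libraries and 196, 304, 202, 258 and 186 in the controls and rose 4.04-fold (adjusted p = 0.0264). The lowest Vav3 value among the treated libraries was again in replicate 5, just above the highest control. Tubb2b, a beta-tubulin, had 232, 276, 264, 164 and 106 normalized counts in the PLX5622 libraries and 23.1, 47.9, 53.2, 43.8 and 48.4 in the controls, a 4.64-fold rise (adjusted p = 0.0137), and shares much of its sequence with Tubb2a, which was also called higher. Lpcat4, a lysophospholipid acyltransferase, had 149, 103, 235, 209 and 96.3 normalized counts in the PLX5622 libraries and 47.9, 31.9, 43.4, 35.9 and 32.6 in the controls and rose 3.86-fold (adjusted p = 0.0203). Iqgap1 and Tubb2b were called without each library in turn. The adjusted p of Kcna3 was 0.0515 without control replicate 5. That of Vav3 reached 0.0853 without 1 of PLX5622 replicates 1 to 4 or control replicates 2 to 5, and that of Lpcat4 0.0636 without 1 of PLX5622 replicate 4 or control replicates 2 to 5.

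**Figure D2:**
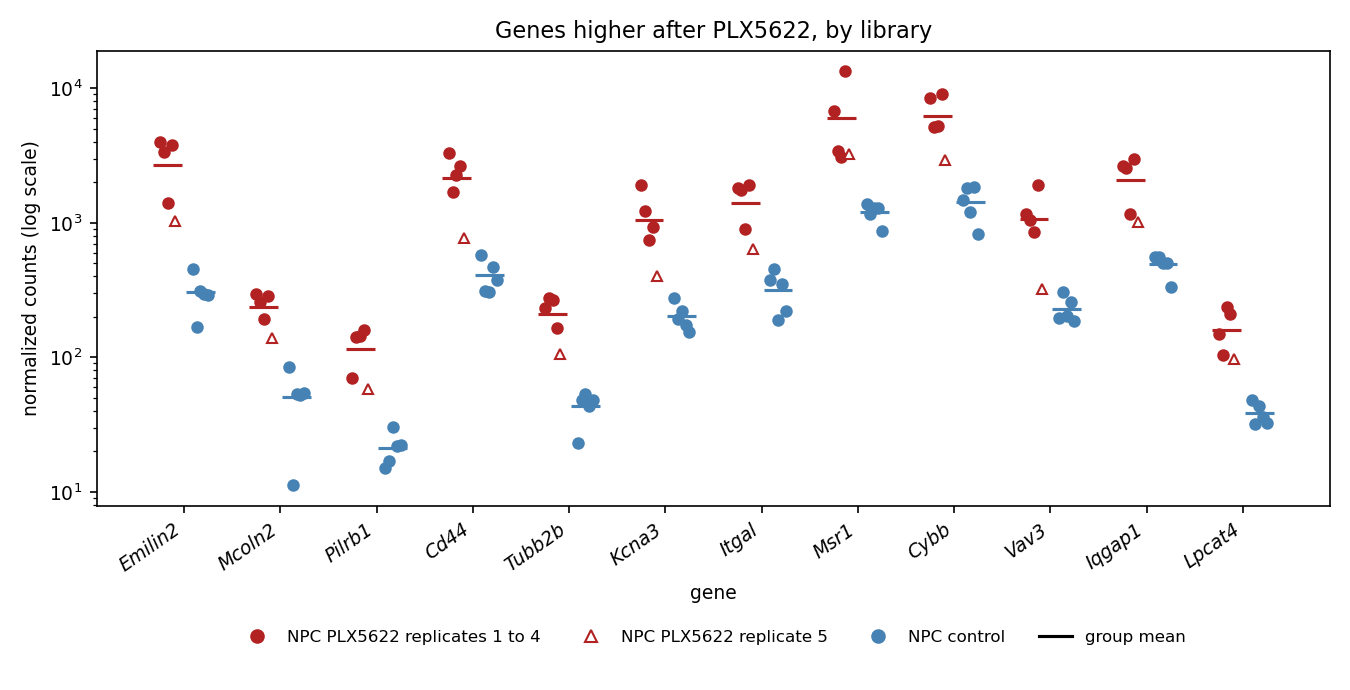
Normalized counts (log scale) of the 12 genes with the largest rise, 1 point per library and the group mean as a line. The 5 PLX5622 libraries lie above the 5 controls for each gene because only genes with separate groups were ranked, and PLX5622 replicate 5 (open triangles) is often the lowest of its group.

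The 12 largest falls, ranked by the same rule among genes without overlap, included receptors, secreted factors and transcription factors. Ptger3, a receptor for prostaglandin E2, had 10.8, 1.70, 14.1, 10.3 and 24.8 normalized counts in the PLX5622 libraries and 53.2, 238, 164, 175 and 287 in the controls. No treated library reached the lowest control, and the gene was 15.1-fold lower (log2 change -3.92, SE 0.63, adjusted p = 0.0149 by limma). Madcam1, an adhesion ligand of lymphocyte integrins, had 0.979, 26.3, 32.5, 22.4 and 93.5 normalized counts in the PLX5622 libraries and 259, 376, 298, 302 and 185 in the controls. It was 13.3-fold lower (adjusted p = 0.0449), with PLX5622 replicate 5 the highest treated library. Cxcl11, a chemokine induced by interferon, had 1.96, 41.6, 15.8, 35.5 and 7.63 normalized counts in the PLX5622 libraries and 98.5, 296, 177, 94.6 and 89.3 in the controls. It was 9.26-fold lower (adjusted p = 0.0494), and the lowest control was 89.3. Each of these 3 had treated libraries of only a few normalized counts, where the added 1 shrinks the difference.

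Sema4b, a transmembrane semaphorin, had 126, 75.5, 117, 168 and 186 normalized counts in the PLX5622 libraries and 539, 375, 398, 348 and 384 in the controls and fell in all treated libraries, to a level 3.13-fold lower (log2 SE 0.25, adjusted p = 0.0113). Klk8, the secreted protease neuropsin, had 72.4, 87.4, 69.4, 63.5 and 83.0 normalized counts in the PLX5622 libraries and 178, 335, 249, 186 and 285 in the controls. The treated values lay close together and all below the lowest control, 3.18-fold lower on average (adjusted p = 0.0103). Csmd3, a large membrane protein with CUB and sushi domains, had 41.1, 24.6, 55.4, 56.9 and 127 normalized counts in the PLX5622 libraries and 169, 182, 319, 385 and 262 in the controls and was 4.68-fold lower (adjusted p = 0.0252). Hlf, a transcription factor of the circadian output, had 33.3, 22.1, 56.2, 20.5 and 57.2 normalized counts in the PLX5622 libraries and 130.4, 103, 128, 159 and 250.3 in the controls and was 4.16-fold lower (adjusted p = 0.028). Abcb4, a transporter that moves phosphatidylcholine across membranes, had 217, 232, 263, 218 and 511 normalized counts in the PLX5622 libraries and 578, 729, 841, 701 and 1070.2 in the controls and was 2.82-fold lower (adjusted p = 0.0166). In Abcb4, as in Csmd3, the treated library nearest to the controls was replicate 5. Tmem204, a membrane protein of cell junctions, was at 59.4 to 273 after PLX5622 and 595 to 839 in the controls (log2 change -2.09, adjusted p = 0.0227). Dusp27, an atypical phosphatase family member, was at 1019 to 2939 and 3390 to 5089 (log2 change -1.41, adjusted p = 0.0204).

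Most of these calls were lost when single libraries were left out. Sema4b was called without each library in turn. The adjusted p of Klk8 was 0.0515 without control replicate 5. For Ptger3 and Tmem204 it reached 0.0627 and 0.0718 without 1 of control replicates 2 to 5. By edgeR the adjusted p of Madcam1 was 0.0611 and that of Cxcl11 0.0809. For Madcam1 it reached 0.122 and for Cxcl11 0.137, and Madcam1 stayed called without PLX5622 replicate 1 or 5 and Cxcl11 without PLX5622 replicate 5. Csmd3 reached 0.0838 and Hlf 0.107 without 1 of PLX5622 replicates 2 and 4 or control replicates 2 to 5, and Csmd3 was also lost without PLX5622 replicate 3. Abcb4 reached 0.0627 without PLX5622 replicate 4 or 1 of control replicates 2 to 5, and Dusp27 0.0703 without PLX5622 replicate 2 or 1 of those controls. The direction of these genes was the same in each of the 10 fits.

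**Figure D3:**
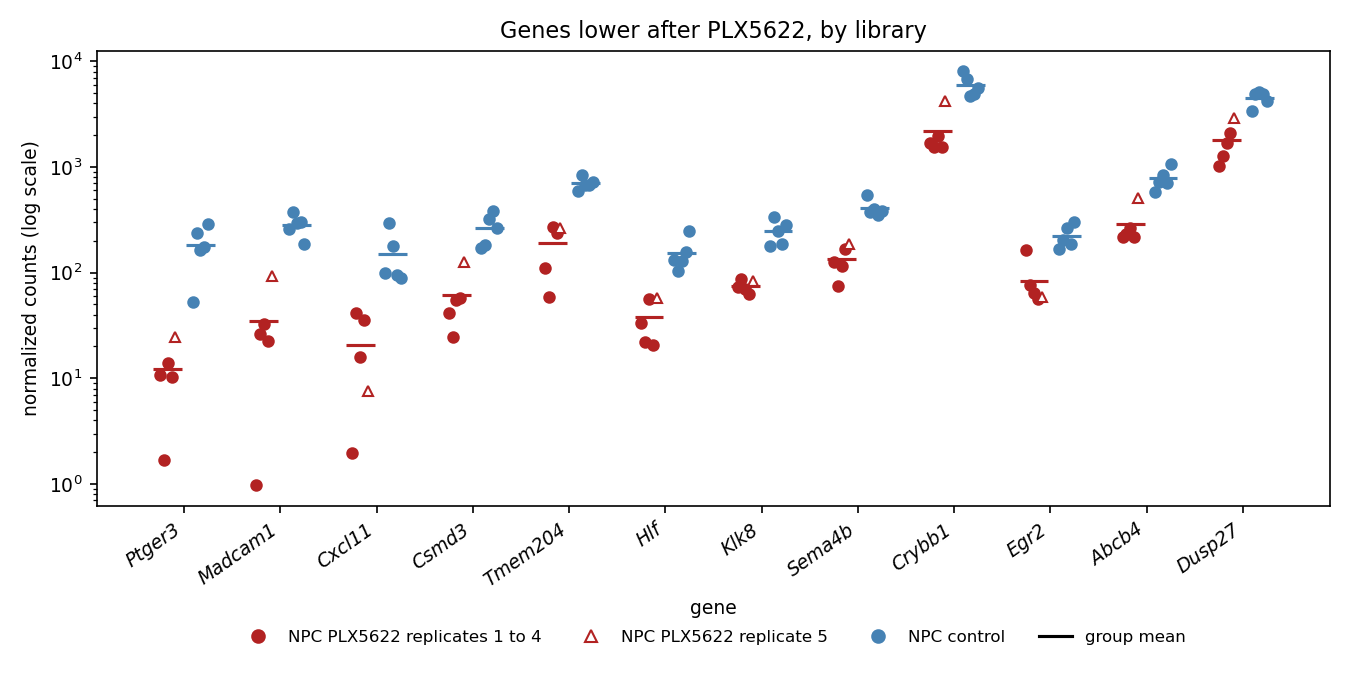
Normalized counts (log scale) of the 12 genes with the largest fall, 1 point per library and the group mean as a line. The PLX5622 libraries lie below the controls for each gene, which the ranking required, and replicate 5 (open triangles) is the treated library nearest to the controls for several of them, as in Abcb4 at 511.

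The targeted receptor itself did not pass the test. Csf1r had 521234, 390264, 442864, 425997 and 503266 normalized counts in the PLX5622 libraries and 494352, 488864, 455492, 454821 and 512551 in the controls. Its ranges overlapped, and the log2 change was -0.08 with a 95% interval of -0.29 to 0.13 (adjusted p = 0.752 by limma). Quantile normalization gave 0.20. The ligand Csf1 had 3035, 3938, 3173, 3898 and 2556 and 3414, 3442, 3977, 3413 and 3219.9, a log2 change of -0.09 (adjusted p = 0.796). The other ligand, Il34, was listed at 0 in 8 of the 10 libraries and at most 3.55, and did not pass the filter. Of 24 measured genes of the Csf1r axis and related cytokine receptors, 2 rose and 0 fell, against 0.637% and 0.311% of all genes. The list's median log2 change was 0.08.

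Both genes of that list that rose promote cell growth and division. Myc, a transcription factor of growth, had 5284, 7489, 5965, 5453 and 5164 normalized counts in the PLX5622 libraries and 3644, 2377, 3093, 2914 and 2716 in the controls. It was 1.99-fold higher in non-overlapping groups (log2 SE 0.13, adjusted p = 0.00703). Ccnd1, the cyclin of the G1 phase, had 1529, 2619.7, 1533, 1146 and 908 normalized counts in the PLX5622 libraries and 611, 685, 599, 669 and 532 in the controls. It rose 2.35-fold (log2 SE 0.23, adjusted p = 0.0264), with replicate 5 the lowest treated library. Receptors for related cytokines did not pass the test. Csf2ra, a subunit of the GM-CSF receptor, had a log2 change of 0.35 (adjusted p = 0.16), its shared partner Csf2rb 0.11 (0.744) and the interleukin-3 receptor subunit Il3ra 1.10 (0.142). Flt3 and Kit, receptor kinases related to Csf1r, had log2 changes of -0.55 (0.503) and 0.71 (0.849). Kit was near the detection limit, at 0 to 59.8 normalized counts. Myc was called without each library in turn, and the adjusted p of Ccnd1 reached 0.0853 without 1 of PLX5622 replicates 1, 3 and 4 or control replicates 2 to 5.

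Among 26 genes of apoptosis and survival, 1 rose and 0 fell, against 0.637% and 0.311% of all genes, with a median log2 change of 0.13 against 0.01. The gene that rose was Bcl2a1a, a pro-survival member of the Bcl2 family, which had 922, 589, 391, 514 and 279 normalized counts in the PLX5622 libraries and 221, 155, 113, 131 and 148 in the controls. Every treated library was above every control, 3.32-fold on average (adjusted p = 0.0204). Without 1 of PLX5622 replicates 2 and 4 or control replicates 2 to 5 the adjusted p reached 0.0663. Its near-identical copies had log2 changes of 0.75 for Bcl2a1b (adjusted p = 0.197) and 1.36 for Bcl2a1d (0.0856), and the division of reads among the copies is uncertain. Bcl2 itself had 1449.6, 1365, 1678, 1478 and 883 after PLX5622 and 1077, 835, 595, 784 and 605 in the controls, a log2 change of 0.82 (adjusted p = 0.0765). The other survival genes Bcl2l1 and Mcl1 had log2 changes of 0.66 (0.252) and 0.14 (0.779). The death-promoting Bcl2l11 had -0.44 (0.436). Without PLX5622 replicate 5 there were 3 calls in this list, all higher.

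**Figure D4:**
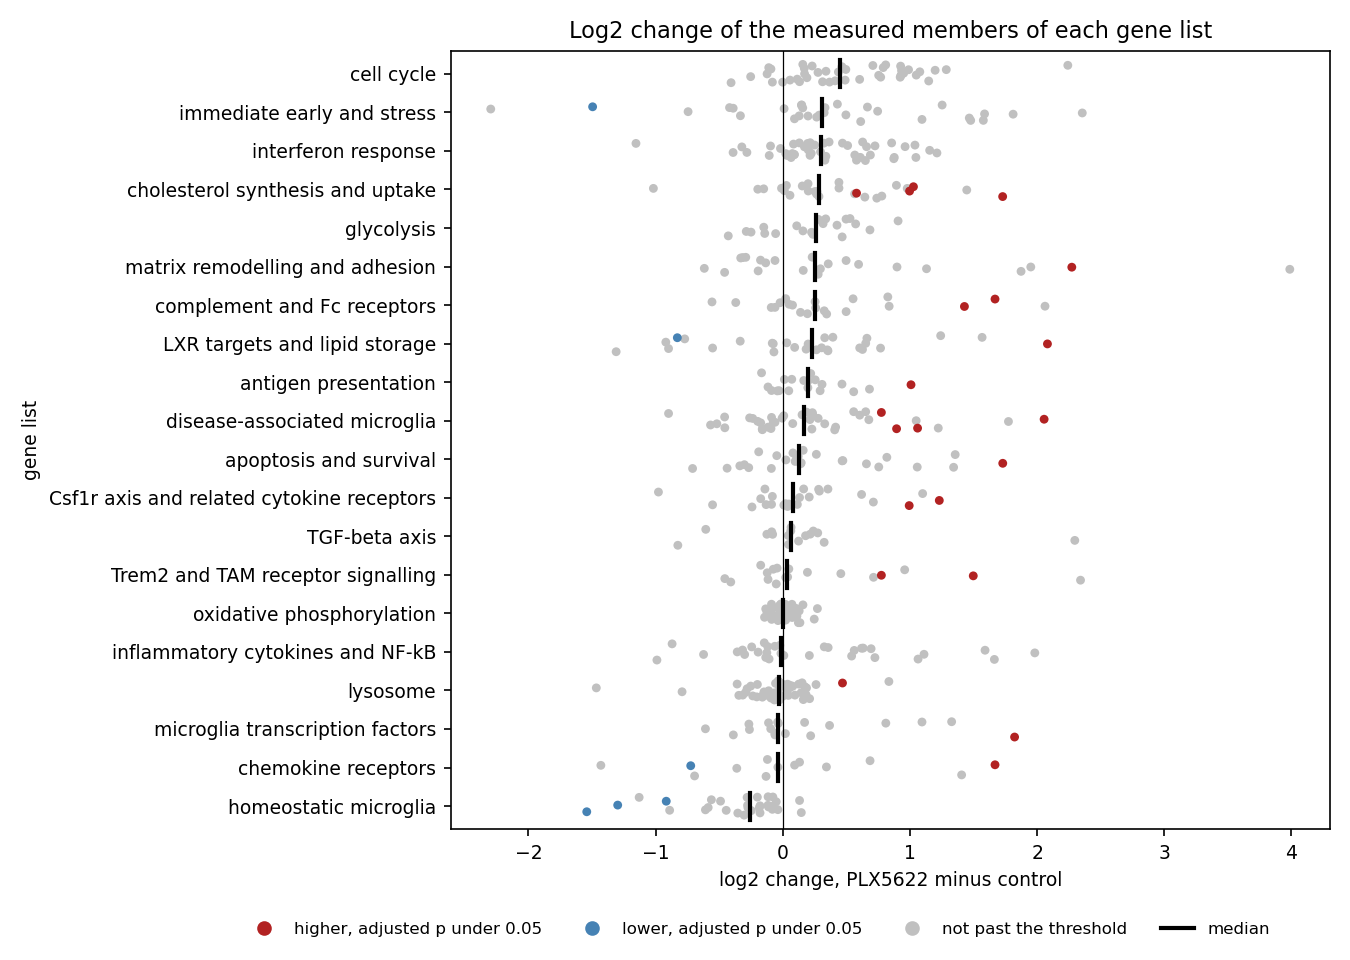
Log2 change, PLX5622 minus control, of the measured members of 20 gene lists other than the cell type markers, 1 point per gene, with the list's median as a bar. Among these 20 lists homeostatic microglia genes have the lowest median (-0.26) and cell cycle genes the highest (0.45), and most members are not past the threshold.

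Homeostatic microglia genes, which mark the resting state, had the lowest median of the 20 lists other than the cell type markers. Of 30 measured, 3 fell and 0 rose, against 0.311% and 0.637% of all genes. A negative log2 change was found in 28, and the median was -0.26, against 0.01 over all genes. Cst3, the secreted protease inhibitor cystatin C, had 347044, 339773, 480766, 289767 and 441094 normalized counts in the PLX5622 libraries and 720155, 776725, 726440, 644138 and 663411 in the controls. It was 1.89-fold lower without overlap (log2 SE 0.13, adjusted p = 0.0103 by limma). Crybb1, a crystallin gene used as a microglia marker, had 1703, 1547, 1960.4, 1533 and 4219 normalized counts in the PLX5622 libraries and 8041, 6783, 4714, 4862 and 5598 in the controls. It was 2.91-fold lower (log2 SE 0.26, adjusted p = 0.0185), and replicate 5 was well above the other treated libraries. Fcrls, an Fc receptor-like scavenger molecule, had 5205, 9961, 5681, 8847 and 14706 normalized counts in the PLX5622 libraries and 15670.4, 24381, 19456, 20452 and 22684 in the controls. It was 2.46-fold lower in non-overlapping groups (log2 SE 0.25, adjusted p = 0.0291), and edgeR gave an adjusted p of 0.0515.

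P2ry12, the ADP receptor that guides microglial processes, had 22753, 41663, 42872, 49155 and 86199 normalized counts in the PLX5622 libraries and 59883, 101785, 115986, 102478 and 119186 in the controls. Control replicate 1 was the lowest control and PLX5622 replicate 5 exceeded it, so the groups overlapped. Its log2 change was -1.13 (SE 0.29, adjusted p = 0.0924). Siglech, a sialic acid-binding receptor, was below all controls in all treated libraries, with a log2 change of -0.56 and an adjusted p of 0.0545. Sall1, a transcription factor of microglial identity, and Olfml3 had log2 changes of -0.61 (adjusted p = 0.408) and -0.49 (0.415). The fractalkine receptor Cx3cr1 had 42784, 68406, 55854, 62370.5 and 94159 and 46151, 64502, 68604, 71263 and 75439, and its log2 change was -0.04 with a 95% interval of -0.45 to 0.37. Aif1, which encodes Iba1, had -0.07 (-0.48 to 0.35), and the leukocyte antigen Ptprc 0.41 (adjusted p = 0.059). Cst3 was called without each library in turn. Without 1 of PLX5622 replicates 2 and 4 or control replicates 2 and 5 the adjusted p of Crybb1 reached 0.0627, and that of Fcrls reached 0.0987 without 1 of PLX5622 replicates 2 to 4 or control replicates 2 to 5. Without PLX5622 replicate 5, 7 of the 30 genes were called lower.

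Transcription factors that define microglia gave 1 call. Of 18 measured, 1 rose and 0 fell (median log2 change -0.04), against 0.637% and 0.311% of all genes. Bhlhe40, a basic helix-loop-helix repressor, had 858, 1032, 539, 413 and 268 normalized counts in the PLX5622 libraries and 157, 183, 175, 149 and 125 in the controls. It rose 3.54-fold without overlap (log2 SE 0.32, adjusted p = 0.0219), and without PLX5622 replicate 3 or 1 of control replicates 2 to 5 the adjusted p reached 0.0718. Spi1, which encodes the myeloid master regulator PU.1, had 14953, 12124, 13614, 12608 and 11091 and 13017, 13561, 12391, 12199 and 12059, with a log2 change of 0.02 and a 95% interval of -0.19 to 0.23. Irf8 had 0.17 (adjusted p = 0.415), Mef2a 0.22 (0.332) and the inflammatory factor Cebpb 0.81 (0.254).

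Genes of the disease-associated microglia state, which microglia switch on around lipid and cell debris, moved unevenly. Of 40 measured, 4 rose and 0 fell, against 0.637% and 0.311% of all genes. The list's median log2 change was 0.17 against 0.01 over all genes. Axl, a receptor that binds apoptotic cells through Gas6, had 65841, 62875, 59699, 66892 and 62814 normalized counts in the PLX5622 libraries and 35162, 46206, 36593, 36718 and 32395 in the controls. The treated libraries lay within a narrow range above all controls, 1.71-fold higher (log2 SE 0.10, adjusted p = 0.00703 by limma). Lgals3, the glycan-binding protein galectin-3, had 6500.1, 4215, 6250.1, 6058 and 4285 normalized counts in the PLX5622 libraries and 3406, 2791, 2334, 2761 and 1841 in the controls and rose 2.08-fold (log2 SE 0.18, adjusted p = 0.0181). Clec7a, the beta-glucan receptor dectin-1, had 6161, 5681, 4496, 6161 and 5013 normalized counts in the PLX5622 libraries and 1864, 3236, 3219, 3152 and 3573 in the controls. It rose 1.86-fold (log2 SE 0.17, adjusted p = 0.0269), with control replicate 1 below the other controls. Cybb, above, was the fourth.

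Other members of that list did not pass the test, and several had negative values. Trem2, the lipid-sensing receptor, had 32818, 32672, 39479.6, 30035 and 38867 normalized counts in the PLX5622 libraries and 35777, 53534, 52254, 49252 and 48672 in the controls, a log2 change of -0.46 (adjusted p = 0.111), and its adaptor Tyrobp had -0.17 (0.409). Cst7, a cystatin family inhibitor, and Lpl, lipoprotein lipase, had -0.52 (0.296) and -0.90 (0.297). Apoe, the main lipid carrier of the brain, had 2604322, 918686, 2183079, 2911311 and 1703422 normalized counts in the PLX5622 libraries and 1735520, 1525316, 1488200, 1556495 and 1347684 in the controls, with PLX5622 replicate 2 below all controls and replicates 1, 3 and 4 above all of them. Its log2 change was 0.33 (SE 0.25, adjusted p = 0.577). Gpnmb had 1.22 (0.241), the integrin Itgax -0.06 (0.891) and the matrix cytokine Spp1 0.28 (0.715). Outside this list, Hpse, which cuts heparan sulfate, and Lox, which crosslinks collagen, had -0.32 (0.449) and -0.13 (0.606). Axl was called without each library in turn. Lgals3 reached an adjusted p of 0.0623 without PLX5622 replicate 4 or 1 of control replicates 3 to 5, and Clec7a 0.0832 without 1 of PLX5622 replicates 1, 2 and 4 or control replicates 2 to 5.

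The list of Trem2 and TAM receptor signalling gave 2 rises and 0 falls among 18 measured genes, against 0.637% and 0.311% of all genes. The list's median log2 change was 0.03. Beside Axl the gene that rose was Ms4a7, a tetraspanning protein also used as a marker of border-associated macrophages, which had 1014, 547, 945, 1604 and 1119.9 normalized counts in the PLX5622 libraries and 247, 439, 426, 544 and 206 in the controls. Its rise was 2.82-fold (log2 SE 0.31, adjusted p = 0.0417 by limma and 0.0507 by edgeR), it was called in 2 of the 10 fits without 1 library, those without PLX5622 replicate 2 or 5, and its adjusted p reached 0.11 in the other fits. Lat2, an adaptor of immune receptors, was above all controls in all treated libraries with a log2 change of 0.96 (adjusted p = 0.0691). Siglec1, the sialoadhesin of macrophages, had 2747, 2868, 956, 1383 and 1076 normalized counts in the PLX5622 libraries and 478, 632, 308, 619 and 245 in the controls and rose 3.80-fold (adjusted p = 0.0264), and without 1 of PLX5622 replicates 1, 2 and 4 or control replicates 2 to 5 the adjusted p reached 0.0863.

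Among 52 lysosomal genes 1 rose and 0 fell (median log2 change -0.03), against 0.637% and 0.311% of all genes. The gene that rose was Gusb, the hydrolase beta-glucuronidase, which had 29522, 33722, 25039, 25827 and 26476 normalized counts in the PLX5622 libraries and 21954, 21017, 19218, 19480.5 and 19396 in the controls, a log2 change of 0.47 (SE 0.10, adjusted p = 0.0494 by limma and 0.0586 by edgeR). It was called in 2 of the 10 fits without 1 library, those without PLX5622 replicate 5 or control replicate 1, and its adjusted p reached 0.149 in the others. Mitf, a transcription factor of lysosomal genes, had a log2 change of -0.79 (adjusted p = 0.0788). In the comparison of NPC with WT at 9 weeks, 29 genes of the same list were higher, against 11.2% of all 14046 genes tested there. In the same comparison 2 were lower, against 7.77%. That fit held 31 libraries, so its counts cannot be compared directly with those after PLX5622.

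Genes of cholesterol synthesis and uptake, which are driven by the transcription factor SREBP2 when sterol in the endoplasmic reticulum is low, held 4 rises. Of 27 measured, 4 rose and 0 fell, against 0.637% and 0.311% of all genes. A positive log2 change was found in 23, and the median was 0.28 against 0.01. Of the 4, Cyp51 and Insig1 are described. Cyp51, the lanosterol demethylase, had 1209.8, 2163, 2079, 1634 and 1002 normalized counts in the PLX5622 libraries and 872, 898, 602, 697 and 768 in the controls, a 2.04-fold rise (log2 SE 0.21, adjusted p = 0.0417 by limma). Insig1, which holds the SREBP complex in the endoplasmic reticulum and is itself a target of SREBP, had 1248, 843, 1228, 771 and 702 normalized counts in the PLX5622 libraries and 524, 606, 329.7, 514 and 408 in the controls. It rose 2.00-fold (log2 SE 0.21, adjusted p = 0.0451 by limma and 0.0503 by edgeR), and this gene, which is outside the rule for named genes, was chosen after its values were seen. Without PLX5622 replicate 3 there were 0 calls in this list, and without PLX5622 replicate 5 there were 6. Cyp51 was called in 3 of the 10 fits without 1 library and Insig1 in 1, and their adjusted p reached 0.12 and 0.14. Calls of Cyp51 were lost without 1 of PLX5622 replicates 2 to 4 or control replicates 2 to 5. Insig1 stayed called only without PLX5622 replicate 5. With the monocyte and neutrophil covariate the log2 changes of Cyp51 and Insig1 were 0.66 and 0.55, and neither was called.

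The 250 bases before the start of Cyp51 and of Insig1, from RefSeq promoters (GRCm38.p6), are shown because both genes rose. The letters searched, on both strands, were CCAAT, the box bound by NF-Y, CACGTG, an E-box, and TCACCNCA, a form of the sterol regulatory element. Matches are in capitals, and a match is a description of the letters alone.
Cyp51, chr5:4104698-4104947, minus strand: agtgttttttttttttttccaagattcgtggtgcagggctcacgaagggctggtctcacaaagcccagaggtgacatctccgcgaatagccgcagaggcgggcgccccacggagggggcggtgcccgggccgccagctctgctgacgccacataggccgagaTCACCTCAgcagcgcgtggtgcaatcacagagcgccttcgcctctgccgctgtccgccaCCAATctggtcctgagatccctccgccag
Insig1, chr5:28071162-28071411, plus strand: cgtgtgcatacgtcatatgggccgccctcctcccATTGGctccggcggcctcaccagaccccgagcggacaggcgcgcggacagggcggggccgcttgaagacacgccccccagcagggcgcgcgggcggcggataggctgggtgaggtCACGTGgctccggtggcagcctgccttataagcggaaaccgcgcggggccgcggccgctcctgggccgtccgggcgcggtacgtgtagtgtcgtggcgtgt
In the Cyp51 sequence TCACCTCA stood 88 to 81 bases before the start and CCAAT 29 to 25 bases before it. In the Insig1 sequence the reverse complement of CCAAT stood 216 to 212 bases before the start and CACGTG 101 to 96 bases before it. No 2 matches overlapped. Of 32851 promoter windows of this length, 33.8% held CCAAT, 6.02% CACGTG and 3.61% TCACCNCA.

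Among LXR targets and genes of lipid storage, 1 of 28 measured rose, Msr1, and 1 fell, against 0.637% and 0.311% of all genes. The list's median log2 change was 0.23. The gene that fell was Scd2, a stearoyl-CoA desaturase, which had 7833, 6343, 5516, 6598 and 8529.9 normalized counts in the PLX5622 libraries and 15213, 11626, 10784, 11007 and 13016 in the controls. It was 1.78-fold lower without overlap (log2 SE 0.14, adjusted p = 0.0166), and without PLX5622 replicate 4 or control replicate 5 the adjusted p reached 0.0627. Abcg1, which exports sterol to lipoproteins, was below all controls in all treated libraries, with a log2 change of -0.92 and an adjusted p of 0.0691. Without PLX5622 replicate 5, 5 genes of this list were called lower.

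The immune lists gave few calls. Of 21 complement and Fc receptor genes 2 rose and 0 fell (median log2 change 0.25), against 0.637% and 0.311% of all genes. Beside Fcgr4 this was C5ar1, the receptor for complement fragment C5a, which had 6226, 6898, 7314, 10173 and 2836 normalized counts in the PLX5622 libraries and 2028, 1909, 2195, 1757 and 1865 in the controls. It rose 3.18-fold without overlap (log2 SE 0.26, adjusted p = 0.0125 by limma), and without control replicate 5 the adjusted p was 0.0561. C3ar1, the receptor for C3a, was also higher in every treated library, with a log2 change of 0.55 and an adjusted p of 0.0691. Among 13 chemokine and chemoattractant receptors C5ar1 rose and S1pr1 fell (median log2 change -0.04), against 0.637% and 0.311% of all genes. S1pr1, a receptor for sphingosine 1-phosphate, had 3846, 3144, 4200.1, 4797 and 5692 normalized counts in the PLX5622 libraries and 7191, 7382, 6548, 6876 and 7135 in the controls, a level 1.65-fold lower (log2 SE 0.14, adjusted p = 0.0293). It was called without PLX5622 replicate 5 or control replicate 1, and its adjusted p reached 0.0929 without 1 of the others. Ccr6 had a log2 change of -1.43 (adjusted p = 0.0672).

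Of 19 measured antigen presentation genes 1 rose and 0 fell (median log2 change 0.20), against 0.637% and 0.311% of all genes. H2-DMa, which helps load peptides onto MHC class II, had 5003, 7484, 4389.9, 5249.6 and 4423 normalized counts in the PLX5622 libraries and 2769, 3135, 2415, 2248 and 2457 in the controls. It was 2.01-fold higher in non-overlapping groups (log2 SE 0.15, adjusted p = 0.0103) and was called without each library in turn. The class II chaperone Cd74 and the class II chain H2-Ab1 had log2 changes of 0.56 (0.0842) and 0.68 (0.146).

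Interferon response genes gave 0 calls among 45 by limma, with 15 higher and 2 lower at an unadjusted p under 0.05, 0 by edgeR and 8, all higher, by DESeq2. Of the 45, 38 had a positive log2 change, and the median was 0.30. Sp100, Ifitm3 and Irf7 came first, with log2 changes of 0.69, 1.04 and 0.86 and adjusted p of 0.0909, 0.0967 and 0.0972. Ifitm3, a restriction factor of viral entry, had 2576, 3868, 2188, 3307 and 2123 normalized counts in the PLX5622 libraries and 1083, 2108, 1517, 1752 and 687 in the controls. Its groups did not overlap. Cxcl11, above, is not in this list and fell. Inflammatory cytokine and NF-kB genes gave 0 calls among 31 by limma, with 8 higher and 2 lower at an unadjusted p under 0.05, 0 by edgeR, and 4 higher and 2 lower by DESeq2. The median was -0.01, and Ccl9, Cxcl16 and Tnfaip2 had log2 changes of -0.62 (0.0765), 0.54 (0.0998) and -0.87 (0.106).

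Cell cycle genes spread widely among the treated libraries. Of 42 measured, 0 were called by limma or edgeR and 1 by DESeq2, with 1 at an unadjusted p under 0.05, and the median log2 change was 0.45. Mki67, a marker of dividing cells, had 758, 1193, 173, 4.67 and 155 normalized counts in the PLX5622 libraries and 42.6, 210.3, 234, 138 and 92.1 in the controls. PLX5622 replicates 1 and 2 were above all controls and replicate 4 was below all of them, and the log2 change was 0.46 (SE 1.22, adjusted p = 0.895). Bub1, a mitotic checkpoint kinase, had 670.5, 601, 169.6, 64.4 and 53.4 normalized counts in the PLX5622 libraries and 16.9, 58.2, 87.7, 25.4 and 40.9 in the controls, a log2 change of 2.24 (adjusted p = 0.171). Cdk1 and Gmnn had 0.93 (0.387) and 0.60 (0.356). The treated libraries again divided, with replicates 1 and 2 the highest in Bub1 and Cdk1.

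Immediate early and stress genes gave 1 fall and 0 rises among 30 (median log2 change 0.31), against 0.311% and 0.637% of all genes. Their summed level was 345210, 195423, 278284, 49527 and 40495 normalized counts in PLX5622 replicates 1 to 5. In control replicates 1 to 5 it was 302773, 249377, 40008.5, 42622 and 39681. PLX5622 replicates 1 to 3 and control replicates 1 and 2 thus had high sums and the others low ones. The part of this division in the list's log2 changes was not tested. The gene that fell was Egr2, an early response transcription factor, which had 163, 77.2, 64.1, 56.0 and 59.1 normalized counts in the PLX5622 libraries and 167, 202, 262, 187 and 303 in the controls. It was 2.82-fold lower (log2 SE 0.32, adjusted p = 0.0494 by limma and 0.0752 by edgeR), PLX5622 replicate 1 was close to the lowest control, and the adjusted p reached 0.154 without 1 library other than PLX5622 replicate 1 or 5. Trib3 and Chac1, genes of the amino acid and unfolded protein stress response, had log2 changes of 1.81 (0.0813) and 2.35 (0.123). Trib3 was higher in every treated library, at 60.1 to 322 against 19.5 to 48.8.

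Metabolic lists gave no call by limma. Glycolysis genes had 0 of 20 called by limma and edgeR, 3 by DESeq2 and 6 at an unadjusted p under 0.05, all higher, with a median of 0.26. Gpi1, the isomerase of glucose 6-phosphate, had 6689, 6251, 7753, 6768 and 6188 normalized counts in the PLX5622 libraries and 5200.1, 4578, 5222, 5213 and 4781 in the controls. Its groups did not overlap, with a log2 change of 0.43 (SE 0.09) and an adjusted p of 0.0521. Slc16a3, the lactate exporter, and Hk2, a hexokinase, had 0.91 (0.0842) and 0.28 (0.175). Oxidative phosphorylation genes had 0 of 41 called by limma, edgeR and DESeq2 and 1 at an unadjusted p under 0.05, with a median of 0.002. Atp5b, Cyc1 and Cycs had 0.27 (0.196), 0.16 (0.478) and 0.25 (0.503).

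Matrix remodelling and adhesion genes gave 1 rise, Cd44, and 0 falls among 22 (median log2 change 0.25), against 0.637% and 0.311% of all genes. Timp2, an inhibitor of matrix proteases, was below all controls in all treated libraries, with a log2 change of -0.46 and an adjusted p of 0.0947. Mmp9, a gelatinase abundant in neutrophils, had 1.96, 1.70, 322, 165 and 21.9 normalized counts in the PLX5622 libraries and 1.77, 0, 0.886, 0.876 and 0 in the controls. Its highest values were in PLX5622 replicates 3 and 4 (adjusted p = 0.181). The monocyte and neutrophil markers summed to 101112 in replicate 3 and to 6995, 5261 and 6024 in replicates 1, 2 and 4. Of these markers, Retnlg had 13.7, 0, 58.9, 50.4 and 25.8 normalized counts in PLX5622 replicates 1 to 5. Mmp8 had 36.2, 0.848, 173, 305 and 25.8 there, so both were highest in replicates 3 and 4. S100a8 and F10, in contrast, were lower in replicate 4 than in replicates 1 and 2. The source of the Mmp9 RNA was not tested. TGF-beta genes gave 0 of 16 calls by limma, edgeR and DESeq2 and 0 at an unadjusted p under 0.05. Their median was 0.06, and Itgav, Tgfbr3 and Ltbp3 had adjusted p of 0.364, 0.458 and 0.479.

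The treatment changes were set beside the difference between NPC and WT, from libraries that the treatment comparison did not use. NPC at 9 weeks against WT at 9 weeks gave 1574 genes higher (11.2%) and 1091 lower (7.77%) of 14046 tested, in a limma fit of 31 libraries. Of the 81 genes that rose after PLX5622 and were tested in both, 31 (38.3%) were also higher in NPC than in WT, which is 2.04% of the 1518 genes higher there. A further 12 of the 81 (14.8%) were lower in NPC, 1.14% of 1053. Of the 40 that fell after PLX5622, 13 (32.5%) were lower in NPC and 6 (15.0%) were higher. Among the 12677 genes not called after PLX5622, 11.7% were higher and 8.11% lower in NPC. Across 12798 genes the 2 log2 changes had a Spearman correlation of 0.21 and a Pearson correlation of 0.23, as a description over genes, which are not independent.

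Genes that both comparisons raised included receptors and adhesion molecules. Itgal averaged 35.4 normalized counts in WT and 362 in NPC (log2 change 3.54, adjusted p = 0.00011 by limma), and rose again from controls to PLX5622. Msr1 had a log2 change of 2.84 between genotypes, Axl 3.16, Lgals3 3.87, Clec7a 2.31, Cybb 1.83, Cd44 1.67, Sdc3 2.61 and Siglec1 2.76. Genes that both comparisons lowered included Ptger3 (-2.13), Csmd3 (-2.66), Klk8 (-2.33), Sema4b (-1.31), Tmem204 (-1.43), Abcb4 (-1.17), Hlf (-1.54) and Cst3 (-0.74). Klk8 averaged 1291 in WT and 255 in NPC, and was at 178 to 335 in the controls and 63.5 to 87.4 after PLX5622.

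Other genes moved against the genotype change. H2-DMa averaged 5275 normalized counts in WT and 2583 in NPC (log2 change -1.06, adjusted p = 0.00503), and its PLX5622 libraries, at 4390 to 7484, ranged around the WT mean. Ccnd1 had a genotype change of -1.06 and rose after PLX5622. Madcam1 averaged 8.48 in WT and 226 in NPC (4.70, adjusted p = 3.93e-05) and was at 0.979 to 93.5 after PLX5622. Cxcl11 had 4.36 between genotypes, S1pr1 2.95 and Egr2 1.45, and all 3 were lower after PLX5622. S1pr1 stayed far above its WT mean of 762 in every treated library, the lowest of which was at 3144. The large genotype changes of Hpse (5.44), Lox (5.19), Cst7 (4.12) and Apoe (2.98) stood beside treatment changes that did not pass the test. Other genes called after PLX5622 did not pass the test between genotypes, among them Emilin2 (0.82, adjusted p = 0.15), Fcgr4 (0.23, 0.607), C5ar1 (-0.35, 0.453), Fam129a (0.58, 0.192), Crybb1 (-0.17, 0.716) and Fcrls (-0.24, 0.28). Of the 30 homeostatic genes, 17 were lower in NPC than in WT, against 7.77% of all genes, with a median genotype change of -0.69. Of the same genes, 3 fell after PLX5622, against 0.311% of all genes, with a median change of -0.26. The fits held different numbers of libraries, so these counts cannot be compared directly.

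**Figure D5:**
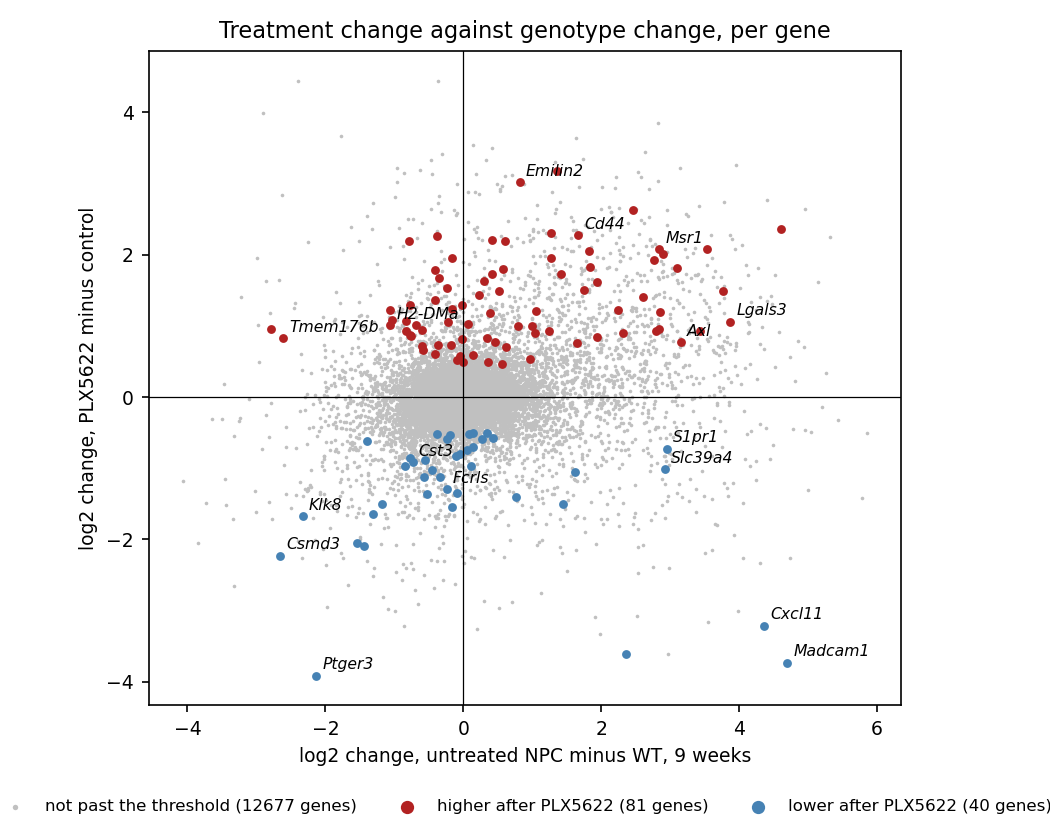
Log2 change after PLX5622 (vertical) against the log2 change of untreated NPC over WT at 9 weeks (horizontal), 1 point per gene for 12798 genes. Coloured points are the 81 genes higher and 40 lower after PLX5622, and they occupy all 4 quadrants.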

How the data were processed

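Polyadenylated RNA of sorted cerebellar microglia was amplified and sequenced, per the labels' protocols. The submitters' processing notes name FastQC 0.11.4, STAR 2.5.1b, DESeq2 and the build mm9. The counter, its strand setting and the annotation are not given in the sources used here. The authors deposited 1 table of normalized counts for 24015 gene symbols, the only measured unit used, here handled as a signal that the authors had scaled per library. In the 10 libraries compared, 100% of the values were whole multiples of 1 step per library (tolerance 1e-06), so whole counts were recovered from the values the authors deposited, 32452155 to 35877535 per library. Reads of near-identical or overlapping genes may be divided arbitrarily.

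A gene was tested (12877 in all) if 3 or more of the 10 libraries had a value of 10 or more, and entered as log2(value + 1) with limma 3.58.1 (trend and robust options, R 4.3.3, 8 residual degrees of freedom), with Benjamini-Hochberg adjustment over all genes tested and a threshold of 0.05. Fold changes and their log2 forms are on that scale, which understates changes of low genes. Counts of calls by edgeR 4.0.16 (quasi-likelihood) and DESeq2 1.42.0 on the recovered counts are alternatives. NPC and WT of 9 weeks were compared within a fit of 31 libraries. The procedure was tested on simulated data.

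Genes are named by rule. The rule takes the 12 largest rises and 12 largest falls among called genes that have an official symbol, average 100 or more in whichever group is higher, and separate the groups completely. It adds 3 members of each list with the smallest adjusted p and a set named in any case, and a few of these genes are not reported here. The cell type marker lists are given mainly by counts and sums. The comparison, members, lists and alternatives were chosen with earlier results of these data known. Of the listed genes, Ms4a4a, Lrrc33, Ly6g and Trbc2 were not found under those symbols. Promoters come from RefSeq (GRCm38.p6). Other settings, single-library omission, a replicate block and 2 covariates were tried as alternatives, and their effect is given in the closing section.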

Additional observations from a re-analysis of the deposited data

Results flagged for a closer look

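A library is listed here where, on the log2 scale, its distance to the nearest other library of its group exceeded 0.71 of the group's whole range, the limit for 5 samples. This held for 22 of 304 groups of 5 values, for the named genes and the summed marker lists. Chance flags about 1 in 20 groups, and the values of 1 library are not independent of each other.

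Control replicate 1 was the library set apart for 10 genes. It was the lowest control for Tmem119 (ratio 0.745), Itgam (0.752), P2ry12 (0.771), Tubb2b (0.766), Clec7a (0.807), Trem2 (0.764), Lpl (0.874) and Ccr6 (0.749), and the highest for Bcl2a1d (0.741) and Cebpb (0.792). Control replicate 2 was the lowest for Mcoln2 (0.760) and Mitf (0.891), and control replicate 5 for Iqgap1 (0.783).

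Among the treated libraries, PLX5622 replicate 5 was set apart for 3 genes. It was the highest for Crybb1 (0.757), Abcb4 (0.778) and Olig2 (1.000). Olig2 stood at 13.4 normalized counts there and was listed at 0 in the other treated libraries. It was also the highest for the summed microglia markers (0.796). PLX5622 replicate 1 was the lowest for Tmem119 (0.823), replicate 4 the lowest for Siglech (0.774), replicate 2 the highest for Sdc3 (0.789) and the lowest for the summed neuron markers (0.786), and replicate 3 the highest for Cd4 (0.763).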

How the results depend on the processing

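The fit called 82 genes higher and 40 lower, and all 122 kept their direction under the alternatives in which they were tested. Both counts stayed within 1.5 times under a pseudocount of 0.5 or 5, a filter of 50 in 5 libraries, rescaling to the same total, quantile normalization and edgeR. By edgeR 100 of the 122 were called, and Fcrls, Madcam1, Cxcl11, Egr2, Insig1, Gusb, Ms4a7, Anxa2, Arpc2 and Capg were among those that were not. Fewer genes were called lower with no filter (24), and fewer in both directions without limma's trend and robust options (17 and 3). Array weights gave 254 and 181, all 41 libraries in the fit 289 and 245, and DESeq2 401 and 205. Leaving out 1 library gave 19 to 279 genes higher and 2 to 186 lower. Of 2 covariates added after seeing the data, monocyte and neutrophil markers left 1 and 0, and Xist left 56 genes higher and 25 lower. The cause of these changes in the counts was not tested. With the replicate block the counts were 264 and 152. The labels share only numbers and state no pairing, so the numbers were not taken as a pairing in the main fit. The deviations of same-numbered libraries from their group means correlated at 0.184, 0.107, -0.148, 0.23 and 0.267. Numbers 1, 2 and 4 correlated best with the control of the same number. Number 3 correlated best with control replicate 1 (0.217) and number 5 with control replicate 4 (0.270). Whether the numbers mark a pairing was not tested.

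Among the genes named, the direction reversed for genes that had not passed the test. Csf1r was at 0.20 with quantile normalization, and Spi1 at -0.0542 there and -0.00779 when rescaled. Array weights gave -0.21 for Mki67. With the monocyte and neutrophil covariate Cx3cr1 was at 0.24, Mcl1 at -0.0504, Spi1 at -0.11 and Kit at -1.20. Without 1 library in turn the log2 change ranged from -0.19 to 0.10 for Cx3cr1, -0.21 to 0.0643 for Aif1, -0.15 to 0.00102 for Csf1, -0.0355 to 0.0722 for Spi1, -0.18 to 0.0257 for Itgax and -0.24 to 1.69 for Mki67. With 5 libraries a group and replicate 5 near the controls, a gene that did not pass the test is not shown to be alike in the groups. Depth was similar in all libraries, and genes of under about 10 normalized counts could not be compared.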

Other observations

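Genes outside the lists also moved, and those below were chosen after their values were seen. Tmem176a and Tmem176b, neighbouring genes of membrane proteins that are lower in NPC than in WT (log2 changes -2.80 and -2.61), were both higher after PLX5622. Tmem176b had 6446, 5999, 4596, 5727 and 6196 normalized counts in the PLX5622 libraries and 3181, 3402, 3255, 2759 and 3735 in the controls, with a log2 change of 0.82 (SE 0.12, adjusted p = 0.00935 by limma). All treated libraries were above all controls and below the WT mean of 19472. Tmem176a rose by 0.95 on the log2 scale (adjusted p = 0.0269, reaching 0.0753 without 1 of PLX5622 replicates 1 to 4 or control replicates 3 to 5).

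A further 7 called genes, with products that act in the cytoskeleton or at the membrane, are given as single genes. No list of such genes was tested. Actr3 and Arpc2, subunits of the actin-branching Arp2/3 complex, had log2 changes of 0.60 (adjusted p = 0.0269) and 0.50 (0.0484). The intermediate filament gene Vim had 1.22 (0.0372), the tropomyosin Tpm4 0.92 (0.0349), the capping protein Capg 0.76 (0.0459), the membrane-binding annexin Anxa2 0.92 (0.0494) and the tubulin Tubb2a 1.63 (0.00677). Every treated library was above every control for each of these 7 genes, as it was for 78 of the 82 genes that rose. By edgeR the adjusted p of Arpc2, Capg and Anxa2 was 0.0578, 0.0551 and 0.0551. Tubb2a was called without each library in turn. The other 6 were lost in 8 or 9 of the 10 fits without 1 library. All 6 were lost without PLX5622 replicate 1, 2 or 4 or control replicate 2, 3, 4 or 5, Capg was kept without PLX5622 replicate 3, and the adjusted p reached 0.0846 for Actr3, 0.144 for Arpc2, 0.107 for Vim, 0.11 for Tpm4, 0.144 for Capg and 0.144 for Anxa2.

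Slc40a1 and Slc39a4, both transporters of metal ions, are given as single genes that fell. Slc40a1, the iron exporter ferroportin, had 4282, 2737, 5182, 5253 and 6975 normalized counts in the PLX5622 libraries and 12499.9, 10262, 8606, 8701 and 11319.9 in the controls. It was 2.18-fold lower without overlap (log2 SE 0.21, adjusted p = 0.0264, and up to 0.0853 without 1 of PLX5622 replicates 1, 3 and 4 or control replicates 2 to 5). Slc39a4, a zinc importer, had 481, 665, 929.7, 727 and 729.7 normalized counts in the PLX5622 libraries and 1027, 2166, 1431, 1172 and 1425 in the controls, a change of -1.01 on the log2 scale (adjusted p = 0.0417, reaching 0.12 without 1 of PLX5622 replicates 1, 2 and 4 or control replicates 2 to 5). It is higher in NPC than in WT by 2.92, and its treated libraries remained above the WT mean of 212.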
